A study of Mus musculus with 6 samples.

Results

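Long intergenic noncoding RNA (lincRNA) genes that stand apart from protein-coding genes were examined for H3K79me2, a histone H3 that carries 2 methyl groups on lysine 79. A gene was included when GENCODE M21 gave it the type lincRNA, it lay on chromosomes 1 to 19, and its window, the gene body plus 3 kb upstream, was at least 5 kb from any protein-coding gene. Meg3, Rian, Mirg and H19 were left out, and Rian does not carry this gene type in the annotation. This gave 3845 isolated lincRNA genes of 5209 lincRNA genes on these chromosomes and of 55413 annotated genes in all. The cells were N2a, a mouse neuroblastoma line, and the mark was mapped with ChIP-seq, the sequencing of DNA recovered by chromatin immunoprecipitation. Cells were transfected with pLKO.1-shCTR (CTR, 2 libraries) or pLKO.1-shNpm1 (NPM1 KD, 2 libraries) and collected at 3 days in vitro. The knockdown experiments used puromycin selection, and only 1 hairpin against Npm1, the gene of the nucleolar protein nucleophosmin, was used. The pooled inputs have no peak lists here.

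H3K79 is methylated by DOT1L, an enzyme found with elongating RNA polymerase II, and the mark is known to lie over the first part of transcribed gene bodies. lincRNA genes are transcribed by the same polymerase, but many are expressed weakly or in 1 cell type. Some act as RNAs in the nucleus, and others are known as hosts from which microRNAs are processed.

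The lists differed in size, with 34831 to 48740 broad peaks per library on the main chromosomes covering 223 to 253 Mb. CTR 2 had the fewest peaks and the lowest median background pileup, a relative measure of depth recovered from the narrow peaks, at 7.65 against 8.99 to 11.9 in the other libraries. Read totals were not given. Of 10 neuroblastoma genes, 8 carried a broad peak in all 4 libraries, including Phox2a and Hand2 at 100% of their windows, whereas Dbh was listed at 0. Of 14 genes of other cell types, Cd68 was covered in all libraries (38.0% to 88.4% of its window) and Pecam1 had a trace in 3. Npm1 itself was 88.4% to 89.1% covered in every library, which says nothing of its expression.

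The start regions of 5 of these genes are shown first because they contrast loci whose start lay under a broad peak in all 4 libraries with a neural lincRNA locus that had no broad peak. Each is the 300 bases from 250 before to 50 after the annotated start on build GRCm38 (mm10), read 5′ to 3′ on the strand of the gene, with CG dinucleotides in capitals. Malat1 (chr19:5802623-5802922, minus strand), 2900097C17Rik, the mouse Norad gene (chr2:156392930-156393229, minus strand), Pvt1 (chr15:62037736-62038035, plus strand) and Lncpint (chr6:31220439-31220738, minus strand) were covered. Miat (chr5:112229346-112229645, minus strand) was not.
Malat1: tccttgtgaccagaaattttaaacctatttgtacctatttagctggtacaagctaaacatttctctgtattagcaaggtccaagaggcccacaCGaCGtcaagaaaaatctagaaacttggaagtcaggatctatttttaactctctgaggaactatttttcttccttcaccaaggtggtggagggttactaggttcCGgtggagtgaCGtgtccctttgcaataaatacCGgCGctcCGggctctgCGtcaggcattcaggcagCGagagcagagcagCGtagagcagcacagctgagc
2900097C17Rik: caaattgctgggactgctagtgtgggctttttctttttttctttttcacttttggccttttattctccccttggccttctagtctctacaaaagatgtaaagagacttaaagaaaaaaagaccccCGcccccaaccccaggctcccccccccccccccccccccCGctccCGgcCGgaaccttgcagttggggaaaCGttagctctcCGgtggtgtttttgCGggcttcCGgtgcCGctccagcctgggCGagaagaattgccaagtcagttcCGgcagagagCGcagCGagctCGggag
Pvt1: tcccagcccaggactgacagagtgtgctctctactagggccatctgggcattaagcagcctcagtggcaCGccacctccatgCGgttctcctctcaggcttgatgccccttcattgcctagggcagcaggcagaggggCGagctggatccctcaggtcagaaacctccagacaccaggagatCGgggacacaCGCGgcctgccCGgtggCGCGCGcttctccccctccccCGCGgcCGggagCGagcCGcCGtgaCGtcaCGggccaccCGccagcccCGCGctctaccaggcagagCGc
Lncpint: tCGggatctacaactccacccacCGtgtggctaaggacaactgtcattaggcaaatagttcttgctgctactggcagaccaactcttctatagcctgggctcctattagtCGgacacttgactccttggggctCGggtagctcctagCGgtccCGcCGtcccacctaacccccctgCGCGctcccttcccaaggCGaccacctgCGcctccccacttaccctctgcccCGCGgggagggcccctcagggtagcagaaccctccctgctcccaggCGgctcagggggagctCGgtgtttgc
Miat: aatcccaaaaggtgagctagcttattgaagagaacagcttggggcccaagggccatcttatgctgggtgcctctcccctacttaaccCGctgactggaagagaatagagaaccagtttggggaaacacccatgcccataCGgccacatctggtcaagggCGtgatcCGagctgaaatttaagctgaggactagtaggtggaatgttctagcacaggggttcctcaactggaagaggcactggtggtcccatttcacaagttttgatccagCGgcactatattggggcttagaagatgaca
The covered windows held 10 CG dinucleotides in Malat1, 14 in 2900097C17Rik, 22 in Pvt1 and 15 in Lncpint, and the window without the mark held 5 in Miat. These 5 are examples, and Mir17hg, whose start was also covered in all 4 libraries, held 5 as well. Among members marked in all 4 libraries, the median was 6 CG in the 62 whose start was covered in all 4. It was 5.5 in the 116 whose start was covered in none.

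For the hosts with at least 1 hairpin under broad peaks in all 4 libraries, 1 mature microRNA of each covered hairpin is given next, since for these loci the marked stretch contains the processed product itself. Sequences are those of RefSeq on GRCm38, with the seed (bases 2 to 8) in capitals. Mir17hg (chr14:115042879-115046727, plus strand) had 6 hairpins under the mark, those of the Myc-responsive miR-17 cluster.
miR-17-5p: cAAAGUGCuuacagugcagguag
miR-20a-5p: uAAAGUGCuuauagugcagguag
miR-18a-5p: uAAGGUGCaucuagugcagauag
miR-19a-3p: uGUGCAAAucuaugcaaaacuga
miR-19b-3p: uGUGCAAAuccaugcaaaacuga
miR-92a-3p: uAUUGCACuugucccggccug
miR-17 and miR-20a share 1 seed, and miR-19a and miR-19b share another. 6720427I07Rik (chr13:48532905-48546500, minus strand) had 3 hairpins under the mark, all of the let-7 family, whose members restrain growth and share 1 seed.
let-7d-5p: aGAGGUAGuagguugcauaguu
let-7f-5p: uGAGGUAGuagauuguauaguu
let-7a-5p: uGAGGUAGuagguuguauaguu
Gm49317 (chr9:41474855-41655483, plus strand) holds Mir100, Mirlet7a-2 and Mir125b-1, and only the Mir125b-1 hairpin was under the mark.
miR-125b-5p: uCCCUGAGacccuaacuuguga
The single hairpins of Gm27028 (Mir30c-2, chr1:23291537-23291935, plus strand) and Snhg20 (Mir6516, chr11:117076008-117078955, plus strand) were also under the mark.
miR-30c-5p: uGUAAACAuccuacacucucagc
miR-6516-5p: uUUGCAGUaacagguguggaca

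Few isolated lincRNA genes carried H3K79me2. A gene was called marked when a broad peak shared at least 1 bp with its window. Broad peaks marked 253 and 232 members (CTR 1 and 2) and 278 and 258 members (NPM1 KD 1 and 2), that is 6.58%, 6.03%, 7.23% and 6.71% of the 3845. All 4 libraries marked 220 members (5.72%), against 32.5% of all genes on chromosomes 1 to 19. A further 75 members were marked in 1 to 3 libraries, and 3550 had no broad peak in any library. The narrow lists marked 277 to 299 members per library and 252 in all 4, of which 208 were also among the 220. Peaks are named as filtered in the broad lists only, so the 2 kinds of list may come from differently filtered alignments.

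The share was lower than in every class of gene compared except processed pseudogenes. Protein-coding genes were marked in 52.8% to 54.8% of cases per library, and those meeting the same distance rule in 37.0% to 38.6%. lincRNA genes within 5 kb of a protein-coding gene reached 37.4% to 40.6%. This class has no lower limit on the distance, so windows that overlap a coding gene are in it. A broad peak over such a coding gene can count as marking the lincRNA gene. Processed pseudogenes meeting the distance rule, which mostly lack promoters of their own, were marked in 1.05% to 1.37%. The isolated lincRNA genes stood 47.3 ± 0.36 percentage points below protein-coding genes (SD, n = 4 libraries), 31.3 ± 0.31 points below protein-coding genes under the same distance rule, 32.6 ± 1.0 points below the lincRNA genes near a protein-coding gene and 5.42 ± 0.43 points above the pseudogenes. The direction was the same in 4 of 4 libraries for each difference, and the exact sign-flip permutation test gave p = 0.13 (two-sided), the smallest value 4 libraries allow. The classes differ in length, expression and nearness to coding genes, and the part of these in the differences was not tested.

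**Figure D1:**
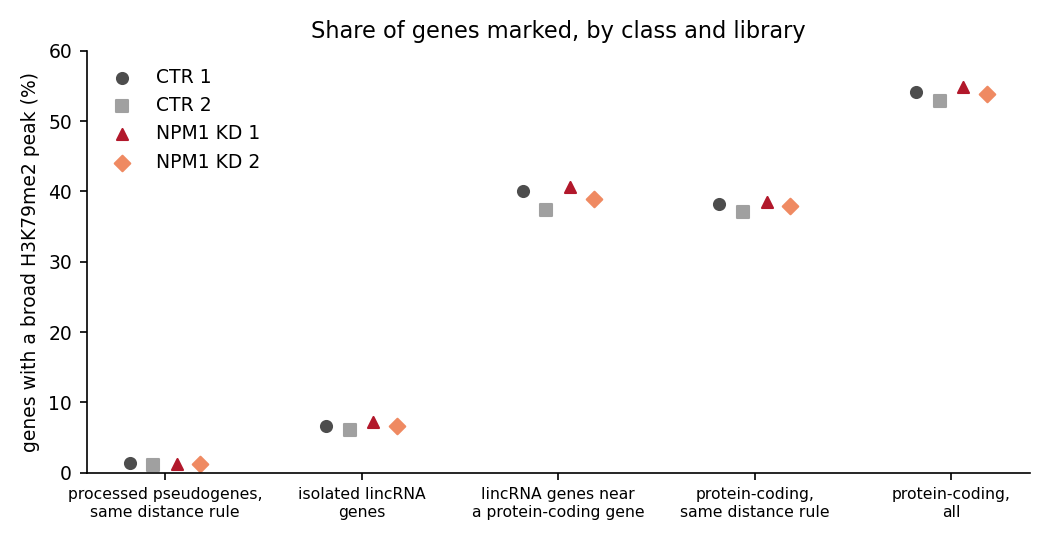
Percentage of genes whose window has a broad H3K79me2 peak (vertical axis) in 5 gene classes (horizontal axis), with 1 point per library. The isolated lincRNA genes lie at 6.03% to 7.23%, between the pseudogenes and the other 3 classes, and the libraries differ far less than the classes.

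Where a lincRNA gene was marked, the width of the mark varied widely. Among the 220 members marked in all 4 libraries, the covered length per window (mean of the libraries) ran from 245 bp to 207695 bp with a median of 3514 bp, and the median covered share of the window was 30.8%. At least 90% of the window was covered in 23 members, 50% to under 90% in 61, 10% to under 50% in 82, and less in 54. Only 39 members had 10 kb or more under broad peaks, and the 4 with the most covered length held 30.0% of the length summed over the members. The marked protein-coding genes under the same distance rule had a median of 17042 bp and 52.5% of the window.

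Pvt1, the noncoding neighbour of the oncogene Myc, had the most covered length. Broad peaks covered 204355 and 206074 bp (CTR 1 and 2) and 211268 and 209083 bp (NPM1 KD 1 and 2), or 59.6% to 61.6% of its window (gene at chr15:62037986-62378096, plus strand). The nearest protein-coding gene was Myc, 44611 bp from the window, and no region over Pvt1 reached a protein-coding gene. Lncpint, a target of the tumour suppressor Trp53 (chr6:31082565-31220488, minus strand), was covered over all 140924 bp of its window in each of the 4 libraries, inside a merged region of 172490 bp. 9530059O14Rik (chr9:122572499-122679596, plus strand) had 103627, 103774, 103960 and 103902 bp in CTR 1, CTR 2, NPM1 KD 1 and NPM1 KD 2, or 94.3% of its window. At these 3 genes the covered length differed little between libraries, and the annotated start was covered in all libraries. Pvt1 was covered in 8 merged regions, the widest of 185466 bp.

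2610035D17Rik (chr11:113043895-113201838, minus strand) had nearly as much covered length as 9530059O14Rik but in scattered pieces. Merged over the libraries, its peaks formed 29 regions, the widest of 25161 bp. Those of 9530059O14Rik formed 2, the widest of 92344 bp. 2610035D17Rik had 98445 and 83102 bp (CTR 1 and 2) and 117997 and 106706 bp (NPM1 KD 1 and 2), and its start was covered in no library. Its strongest peak had a deposited fold over background of 2.92 to 3.34, compared with 9.21 to 11.8 for 9530059O14Rik. Next in covered length came Gm48749 with 39400 to 44457 bp, Gm5535 with 29657 to 35241 bp, Gm29260 with 26351 to 33707 bp, Gm5165 with 25932 to 27231 bp, Gm11033 with 22790 to 26046 bp and Gm49539 with 23801 to 24593 bp. The peaks of Gm48749 were weak, with a highest fold of 2.34 to 2.57 per library. Their highest −log10 q was 3.61 to 4.63, under the minimum of 5 used as an alternative. Narrow peaks covered 20492 to 28653 bp of its window. Gm48749, Gm5535, Gm29260 and Gm11033 had 9, 12, 18 and 7 merged regions, the widest of 20896, 15169, 9806 and 18561 bp. Gm5165 and Gm49539 had 1 each. Gm48749 overlaps Samd5 and Gm5165 overlaps a protein-coding model of the same name in RefSeq, although GENCODE M21 gives neither as a coding gene there. In all, 19 of the 220 members overlap a RefSeq protein-coding gene, and 201 remain without them.

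**Figure D2:**
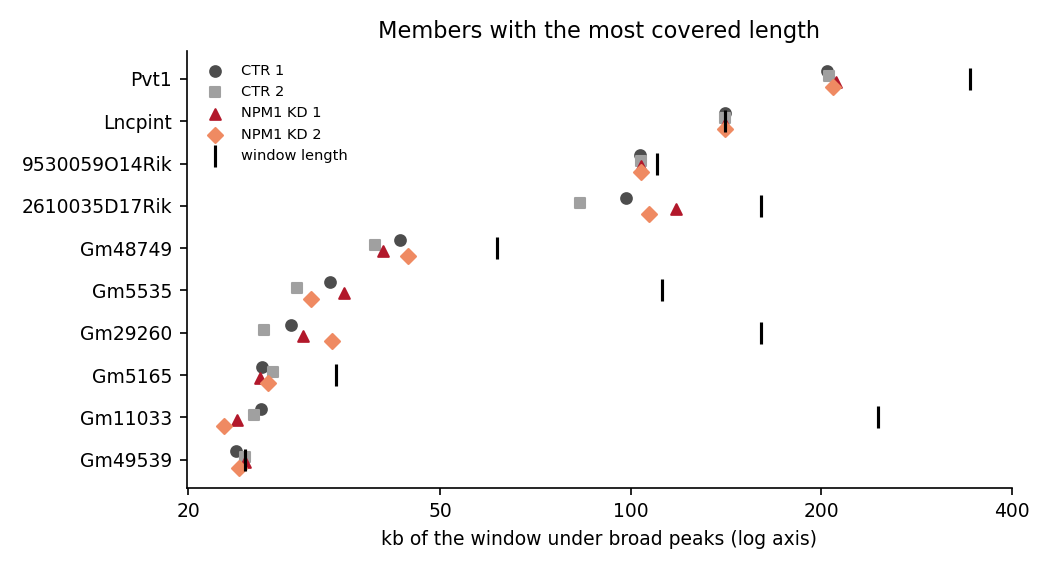
Covered length in kb on a log axis (horizontal) for the 10 members with the most covered length (vertical), with 1 point per library and a bar at the length of the window. Lncpint fills its window in all 4 libraries, Pvt1 fills 59.6% to 61.6%, and 2610035D17Rik has the widest spread, from 83102 to 117997 bp.

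The strongest peaks stood over other genes than the most covered length, apart from 9530059O14Rik and Gm49539. Ranked by the deposited fold of the highest broad peak in the weakest library, Gm49539 led with 25.1 and 23.3 (CTR 1 and 2) and 18.8 and 19.3 (NPM1 KD 1 and 2). Gm34030, whose window was covered over all 5894 bp, followed with 17.9, 18.6, 14.8 and 15.5, and its domain runs on into Hand2, a sympathetic lineage factor 7058 bp from the window. Gm13073, Gm29683, Gm23925, 6720427I07Rik, Gm26698, Gm26887, 9530059O14Rik and Gm47134 completed the 10, with 9.21 to 12.6 in their weakest library. The fold is that of any peak touching the window. A region over Gm13073, Gm29683 and Gm26698 likewise reached a coding gene body, that of Slc25a33, Nr2f2 and Irf2bpl in turn. The region over Gm49539, of 79395 bp against a window of 24593 bp, ran on into the noncoding gene Lncppara. Regions over Gm23925 and Gm26887 reached the noncoding genes Snhg17 and Gm26532 in turn. Only 300 to 2714 bp of the Gm13073 window and 1.29% to 4.08% of the Gm29683 window were covered over the libraries. Gm47134 lies inside the 9530059O14Rik window on the other strand and shares its peak, so they are 1 domain. Over all marked members, the median fold of the highest peak was 2.91 to 3.24 per library. Fold belongs to the single peak and is scaled within each library, so it was not compared between groups.

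Few domains reached a protein-coding gene of GENCODE M21. The rule keeps members at least 5 kb from these genes, so a low count is partly built in. Coding genes given by RefSeq alone are not counted, although 19 of the 220 members overlap a RefSeq protein-coding gene. The merged region reached the window of a protein-coding gene in 8 of 220 members: Gm34030 (Hand2), Gm48759 and Gm48757 (Samd5), Gm29683 (Nr2f2), Gm44386 (Pcbp1), Gm10062 (Xrcc2), Gm26698 (Irf2bpl) and Gm13073 (Slc25a33). In 108 members every region ended inside the window, and in 75 a region reached another long noncoding RNA gene.

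Of 32 members on a list of well-studied lincRNAs, host genes and Platr transcripts, 15 were marked in all 4 libraries and 17 had no broad peak in any. Malat1, an abundant RNA of nuclear speckles (chr19:5795690-5802672, minus strand), was covered over all 9983 bp of its window in each library. The Norad gene 2900097C17Rik, whose RNA binds Pumilio proteins (chr2:156388065-156392979, minus strand), had 5851 and 5665 bp (CTR 1 and 2) and 5978 and 5896 bp (NPM1 KD 1 and 2). The start of both genes was covered in all libraries, and the range over libraries was 0 bp for Malat1 and small beside the level for Norad.

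Trp53cor1, also called lincRNA-p21 and induced by Trp53, has a window that lies 8796 bp from Cdkn1a. Trp53cor1 had 17569, 16410, 16619 and 16108 bp in CTR 1, CTR 2, NPM1 KD 1 and NPM1 KD 2, with no library covering its start. Lncenc1, described in embryonic stem cells, had 24263, 22704, 22770 and 21149 bp. Dubr, studied in muscle precursors, had 8360 to 9444 bp over the libraries and no covered start. Carmn and Bvht, known from heart and smooth muscle, are neighbours on chromosome 18 and had 14792 to 16098 bp and 3624 to 6411 bp. The groups overlapped at Trp53cor1, Lncenc1, Dubr and Bvht, whereas both NPM1 KD libraries stood above both CTR libraries at Carmn (limma adjusted p = 0.563).

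Some lincRNAs known from neural cells had no mark, as was the case for 92.3% of all members. Rmst, a partner of Sox2 in neurogenesis, Miat, a neuronal nuclear RNA, Mir124-2hg and Mir9-3hg had 0 bp in every library and also no narrow peak. Mir124a-1hg, named as a host of the neuronal microRNA miR-124, was marked, with 2499 and 1948 bp (CTR 1 and 2) and 2053 and 1791 bp (NPM1 KD 1 and 2), none of it at the start. Of 15 Platr transcripts, named for pluripotent cells, 3 were marked in all 4 libraries: Platr27 (1113 to 1506 bp), Platr26 (396 to 1363 bp) and Platr19 (572 to 705 bp). Their peaks were weak, with a highest −log10 q per library of 1.69 to 3.83, 1.60 to 2.96 and 1.11 to 2.21 in turn. Platr19 had a narrow peak in only 1 library. Platr28 had narrow peaks in all 4 libraries and no broad peak.

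Some of the marked loci are microRNA hosts. Of 24 members whose body holds a RefSeq microRNA hairpin on the same strand, 7 (29.2%) were marked in all 4 libraries, compared with 5.72% of all members, a difference given without a test. Mir124a-1hg and Mir124-2hg are not among the 24, since no such hairpin was found in their annotated bodies. Mir17hg had 5841 and 5690 bp (CTR 1 and 2) and 5776 and 4517 bp (NPM1 KD 1 and 2), with its start covered throughout, and NPM1 KD 2 was the lowest. The let-7 host 6720427I07Rik had 13384, 13454, 15103 and 15063 bp, so both NPM1 KD libraries stood above both CTR libraries, although limma did not call it (adjusted p = 0.143). Gm49317 had 13148 to 14247 bp, E130102H24Rik 6714 to 8500 bp, Gm27028 2603 to 3399 bp and Snhg20 2742 to 3235 bp. Of the 22 hairpins in the 7 marked hosts, 12 lay under a broad peak in all 4 libraries and 10 in none, among them all 7 Mir344 family hairpins of A230057D06Rik and Mir101a of E130102H24Rik.

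The marked members had more CG dinucleotides at the start. In the 300-base window the median was 6 CG in members marked in all 4 libraries and 3 in members marked in none, and 23.6% against 7.13% of them had at least 10. The share marked in all 4 libraries was 2.90% with 0 or 1 CG, 4.23% with 2 to 4, 7.12% with 5 to 9, 13.0% with 10 to 19 and 31.0% with 20 or more. Protein-coding genes under the same distance rule had medians of 21 and 3 CG. The motif is a palindrome, so both strands give the same count. Median gene length was 10284 bp in the marked and 8476 bp in the unmarked members, and median exon number was 3 in both. These shares describe the genes of 1 cell line and carry no test.

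**Figure D3:**
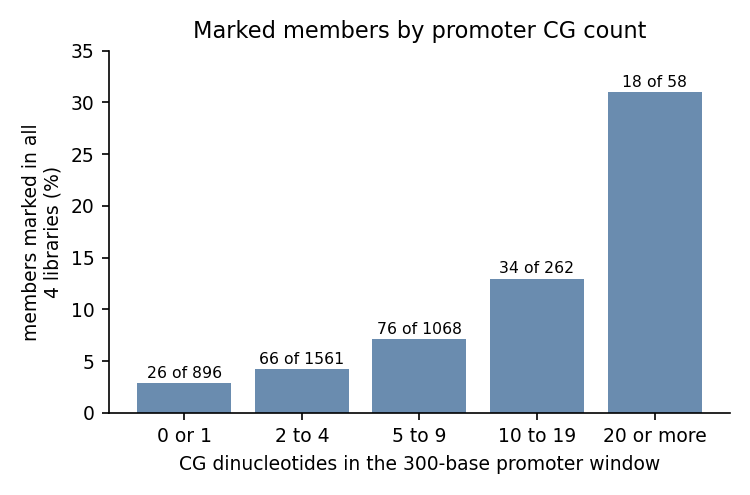
Percentage of isolated lincRNA genes marked in all 4 libraries (vertical axis) by the number of CG dinucleotides in the 300-base start window (horizontal axis), with the counts above the bars. The share rises from 2.90% with 0 or 1 CG to 31.0% with 20 or more.

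The annotated start was covered less often than in protein-coding genes. A broad peak lay over the start of 34.8%, 29.3%, 35.6% and 33.7% of the members marked in CTR 1, CTR 2, NPM1 KD 1 and NPM1 KD 2. In protein-coding genes under the same distance rule the values were 50.1%, 44.7%, 54.1% and 42.5%, higher in each of the 4 libraries. Of the 220 members, 62 had a covered start in all 4 libraries and 116 in none. Aligned on the start, coverage was highest 750 bp downstream, at 58.0% of marked members, and in protein-coding genes 1250 bp downstream, at 87.4% of genes. A start that is wrong in the annotation, or a second promoter, cannot be told apart here from a domain away from the start.

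**Figure D4:**
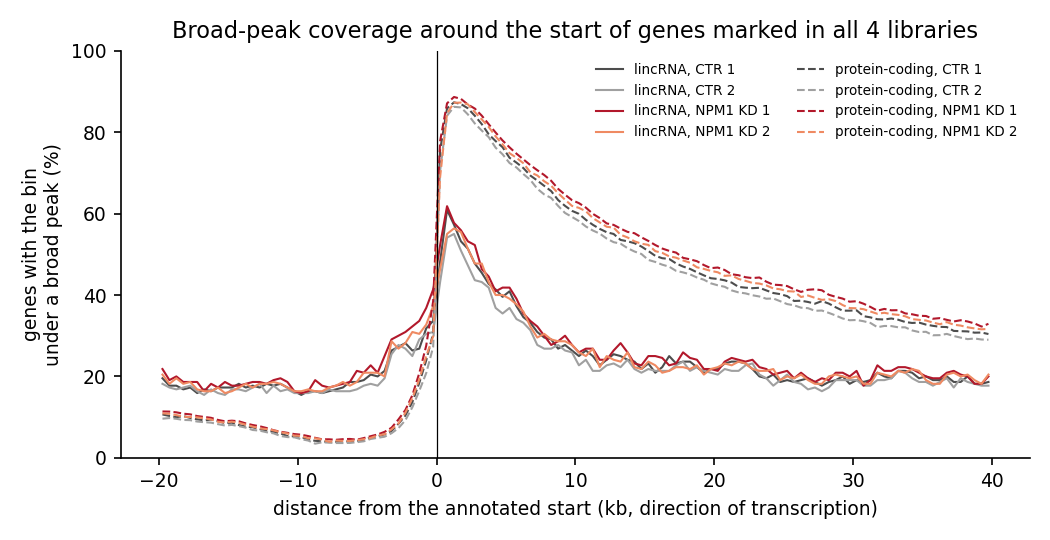
Percentage of genes with a 500-bp bin under a broad peak (vertical axis) against distance from the annotated start in kb (horizontal axis), for lincRNA genes (solid) and protein-coding genes under the same distance rule (dashed) marked in all 4 libraries, with 1 line per library. Both rise past the start, to 58.0% in lincRNA genes and 87.4% in protein-coding genes on average, and the lincRNA lines stand higher than the protein-coding lines upstream.

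The comparison of NPM1 KD with CTR asks whether less nucleophosmin goes with another extent of the mark at these genes. CTR libraries marked 6.31% ± 0.39 of the members and NPM1 KD libraries 6.97% ± 0.37 (SD, n = 2 each), a difference of 0.663 percentage points with exact permutation p = 0.33 (two-sided), the smallest that 2 against 2 libraries allow. The members' windows hold 97.8 Mb after merging, of which 1.78 and 1.65 Mb (CTR 1 and 2) and 1.86 and 1.79 Mb (NPM1 KD 1 and 2) lay under broad peaks. The group means were 1.71 ± 0.089 Mb and 1.82 ± 0.047 Mb, with exact permutation p = 0.33. CTR 2, the shallowest library, was the lowest in both measures, while NPM1 KD 1, with the second lowest background pileup, was the highest. The difference in share was 0.390 percentage points without CTR 2 and 0.403 without NPM1 KD 1, and the difference in length was 0.0464 Mb without CTR 2. With the narrow lists the differences were 0.182 points and 0.0400 Mb, and the groups overlapped in share and in length. In length, CTR 1 (1.67 Mb) stood above NPM1 KD 1 and 2 (1.63 and 1.65 Mb). At a −log10 q of at least 5 the share differed by 0.0910 points, with CTR 1 (3.93%) above both NPM1 KD libraries (3.64% each). CTR 1 was also above them in length at that minimum, with 1.353 Mb against 1.345 and 1.341 Mb in NPM1 KD 1 and 2. With every list cut to the size of the smallest, the share differed by 0.312 points. The part of depth in these differences was not tested.

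Per gene, limma on log2(covered bp + 1000) was fitted to all 18781 windows with a broad peak in at least 1 library, of which 295 are members. It called 2 members with more covered length in NPM1 KD, against 5 of all windows (0.0266%), and no member with less, against 0 windows (0%). Without adjustment, 26 members (8.81%) were higher and 9 (3.05%) lower at p under 0.05, against 12.5% and 0.660% of all windows fitted. The called genes entered the fit through their peaks in NPM1 KD alone, so their call is no support for a gain over the members. These genes, 9430085M18Rik (chr5:101703586-101705850, plus strand) and Gm42133 (chr5:101698133-101704063, minus strand), overlap and share the same peak. Both were listed at 0 bp in the CTR libraries, and NPM1 KD 1 and NPM1 KD 2 had 707 and 713 bp (limma adjusted p = 0.0337). This peak had a fold of 1.77 and 2.24 and a −log10 q of 1.0 and 3.4 in the NPM1 KD libraries, against a median fold of 2.91 to 3.24 for the highest peak of marked members. With the replicate number as a block, and also without any 1 of the 4 libraries, limma called no member.

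Covered length was more often higher in NPM1 KD than lower, as it was over all genes. Both NPM1 KD libraries stood above both CTR libraries in 87 of the 295 members (29.5%), against 38.7% of all windows fitted. The reverse held in 20 members (6.78%), against 3.14% of all windows. The median log2 difference was 0.072 in the members and 0.065 over all windows. It was 0.0084 in the members against 0.056 over all windows with the narrow lists, 0.0072 against 0.031 with a minimum −log10 q of 5, and 0.021 against 0.029 without CTR 2.

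The largest gain without overlap of the groups was in 2610035D17Rik, whose CTR libraries had 98445 and 83102 bp and whose NPM1 KD libraries had 117997 and 106706 bp (limma adjusted p = 0.483). 2310005E17Rik (chr13:98424109-98435065, minus strand) had 5009 and 2191 bp in the CTR libraries against 10964 and 10888 bp after NPM1 KD (limma adjusted p = 0.382). Pvt1 was the other of the 3, with group means of 205214 bp (CTR) and 210176 bp (NPM1 KD) (limma adjusted p = 0.394). None of the 3 passed the threshold, and the CTR libraries of 2310005E17Rik differed from each other by more than those of NPM1 KD.

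The largest losses without overlap were in A230057D06Rik, 4930533N22Rik and A230006K03Rik, all on chromosome 7. A230057D06Rik (chr7:61704519-61928690, minus strand) had 21762 and 20754 bp in the CTR libraries against 16352 and 20569 bp after NPM1 KD (limma adjusted p = 0.666). A230006K03Rik, on the same strand at chr7:61127996-61311721, had 8774 and 6592 bp in the CTR libraries against 2436 and 4640 bp after NPM1 KD (limma adjusted p = 0.458). 4930533N22Rik (chr7:75030194-75075164, plus strand) had 19244 and 16411 bp in the CTR libraries against 14604 and 14972 bp after NPM1 KD (limma adjusted p = 0.473). The peaks of 4930533N22Rik were weak, with a highest −log10 q of 2.69 to 3.71 per library. None of the 3 was called, and in A230057D06Rik the higher NPM1 KD library lay just under the lower CTR library.

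Members marked in 1 group only were few and narrow. Both NPM1 KD libraries and no CTR library had a broad peak in 14 members (0.364%), against 0.371% of all genes on chromosomes 1 to 19. Both CTR libraries and no NPM1 KD library had one in 1 member (0.0260%), against 0.0351%. Both shares were near those of all genes. The 14 had 155 to 1573 bp per NPM1 KD library and a highest −log10 q of 3.41. Gm38293 had 1573 and 431 bp in NPM1 KD 1 and NPM1 KD 2, 6530403H02Rik had 1153 and 324 bp, and Gm49477 had 1124 and 279 bp. The member with the mark in CTR only was Gm13431, with 486 bp in CTR 1 and 300 bp in CTR 2.

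**Figure D5:**
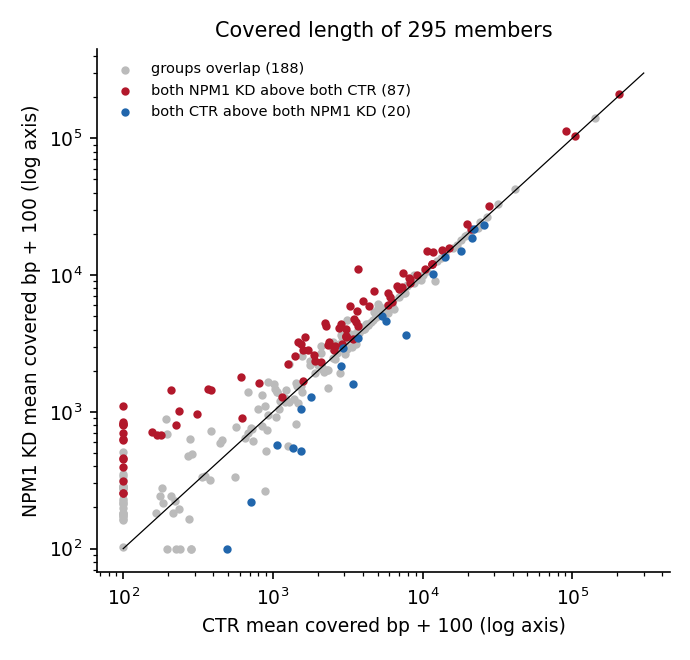
Mean covered length plus 100 bp in NPM1 KD (vertical, log axis) against CTR (horizontal, log axis) for the 295 members with a broad peak in at least 1 library, with the line of equal values. Red points (87) have both NPM1 KD libraries above both CTR libraries, blue points (20) the reverse, and most points with large differences lie at low covered length.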

How the data were processed

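Peak lists of 4 H3K79me2 ChIP-seq libraries (CTR and NPM1 KD, 2 each) were used. According to the methods and the submitters' processing notes, the authors aligned paired-end reads to mm10 with Bowtie2 (2.3.4.1) and called peaks per library with MACS2. The notes give MACS2 2.2.6 and the methods an earlier version. Whether the pooled input served as background is not given in the sources used here. Each list holds, as deposited by the authors, a score, a fold ratio over background, a −log10 p and a −log10 q per peak, with q adjusted within each library. The score was not used further. Members and lists of genes were chosen with earlier results of these data known.

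Broad lists gave the main values and narrow lists stood beside them. Covered length was the number of bases of a window under peaks. GENCODE M21 and the RefSeq sequence are on the same build, GRCm38. Python 3.11.15 served for intervals, shares and exact permutation tests, through pandas 2.3.3, numpy 2.4.6 and scipy 1.17.1, and matplotlib 3.10.9 for figures. limma 3.58.1 in R 4.3.3 took log2(covered bp + 1000), and p-values were adjusted by Benjamini-Hochberg across every window with a peak, after the procedure was tested on simulated data, and its threshold was an adjusted p of 0.05. Many windows have equal values in all libraries, so limma's spread is estimated partly from zero variances.

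Named members were the 10 with the most covered length, the 10 with the highest fold in their weakest library, studied lincRNAs marked in all libraries, those called by limma, the 3 of each direction that changed most without overlap of the groups, and up to 5 per direction marked in 1 group only. Unmarked studied lincRNAs, microRNA hosts and members whose domain reaches a coding gene were named after their values were seen. According to the methods, each replicate was another passage and transfection batch, so equal replicate numbers were taken as pairs. Once group means were subtracted, libraries of equal number correlated at 0.195 across windows, which are not independent. The p-values over genes rest on 2 cultures per group. Alternatives were the narrow lists, a minimum −log10 q of 5, the body alone, other distance and overlap rules, other pseudocounts and filters, and leaving out each library. The depth of the libraries in reads is unknown, so no counting intervals are given. A few items are not reported here.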

Additional observations from a re-analysis of the deposited data

How the results depend on the processing

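With the replicate number as a block, the share of members marked still differed by 0.663 percentage points and the covered length by 0.109 Mb (exact sign-flip permutation p = 0.5 for both, the smallest 2 pairs allow). Both means stayed higher in NPM1 KD under every alternative run, but fell to 0.0910 percentage points (share, at a minimum −log10 q of 5) and 0.0400 Mb (length, narrow lists), with exact permutation p = 1 for both, and the members stayed below protein-coding genes under every alternative run. The number of members marked in all 4 libraries was 116 at a minimum −log10 q of 5 and 148 to 252 under the other alternatives. limma, which called 2 members and 5 windows in all, called 0 members and 0 windows with the block, with the narrow lists and without any 1 library (0 to 0). It called 0 and 83 under that −log10 q minimum, 3 and 81 with the gene body alone, 5 and 22 with a pseudocount of 200 bp, and 4 and 18 with no filter, where limma warned that most variances were zero. Members marked in NPM1 KD only were 7 with the narrow lists, 2 with the −log10 q minimum, 6 with at least 10% of the window covered and 6 with lists of equal size. Members marked in CTR only were 5, 0, 5 and 2 under the same alternatives, 2 with the body alone and 0 at a distance of at least 10 kb. A region reached a protein-coding gene in 5 members with the narrow lists and 4 at a distance of at least 10 kb. The start was covered in 33.4% of marked members on average, in 23.2% with the narrow lists, 46.6% with the −log10 q minimum and 69.1% when a peak within 1 kb counted. For 41 named members the sign of the difference turned in 4 with the narrow lists, 4 with the −log10 q minimum, 2 with the body alone and 2 to 7 when a library was left out. The causes were not tested. Lists of equal size, the RefSeq filter and the protein-coding class under the same distance rule were added after seeing the data. Peak lists hold extents of called domains and no read counts, so a change of signal inside a domain cannot be seen.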

Other observations

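A group of 43 members had narrow peaks in all 4 libraries and no broad peak in any, while no member had broad peaks in all libraries without a narrow peak in at least 1. The narrow lists may have been called on alignments with other filters than the broad lists, and the part of this in the difference was not tested. By distance, 3.43% of the 1488 members at least 100 kb from a protein-coding gene were marked in all 4 libraries, compared with 7.95% of the 302 members at 5 to under 10 kb. By chromosome, the share ran from 3.20% on chromosomes 11 and 12 to 11.5% on chromosome 17, where 19 of 165 members were marked. By name, 4.93% of the 2678 Gm models, 6.78% of the 767 RIKEN clone names and 5.71% of the 315 genes with clone names beginning AC, CT, AL, BC or EU were marked, as were 2 of 4 members named as microRNA hosts. Single-exon members were marked in 9.36% of 171 cases. These are descriptions of 1 cell line with no test.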
